A study of Camelus dromedarius with 10 samples.

Results

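HR encodes the hairless protein, a nuclear corepressor, and the genes THRA, THRB, VDR, RORA and RORB encode nuclear receptors that this protein is known to bind. These 6 genes were followed in the rostral supraoptic nucleus (SON) of dromedary camels, out of 22444 gene IDs in the count table. Each gene ID was matched to its symbol through the supplementary gene tables of the study, and all 6 members were found. HR and THRA came onto the list because earlier results of these data had called them lower after water deprivation (WD), so their differences between the groups are given as a description, and where a call of either gene is mentioned it supports nothing. THRB, VDR, RORA and RORB were chosen as known partners of the hairless protein, and their differences were tested. Earlier results of these data were known when this choice was made.

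The SON holds magnocellular neurones, which send vasopressin and oxytocin to the posterior pituitary. RNA was sequenced from SON punches of 5 control camels, which had food and water freely available, and of 5 WD camels, which went without water for 20 days. All were male, 4 to 5 years of age, and each library came from 1 camel. Libraries are named here by group and by the number in their label (CON2, CON3, CON4, CON5 and CON13, and WD6, WD7, WD8, WD9 and WD15). The magnocellular marker genes SIM1, OTP, ARNT2 and PDYN had counts in all 10 libraries.

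The hairless protein binds no hormone. It is recruited by nuclear receptors and in turn brings histone deacetylases to their target genes, and it carries a JmjC domain, the fold of many histone demethylases. Thyroid hormone receptors without hormone use it as a corepressor, and in the developing brain the HR gene is itself a classic target of thyroid hormone. The same protein restrains the vitamin D receptor, best known from the hair follicle, and the ROR receptors, which activate clock genes and other targets without a need for an added hormone.

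Levels are counts scaled to CPM, the share of a library's read pairs in parts per 1e+06, after TMM normalization, which scales libraries so that most genes stay level. Transcript lengths were not used, so levels are compared between libraries and not between genes. Totals ran from 1665098 counts in CON13 to 8126641 in WD9, and 5 gene IDs alone took between 27.7% and 76.1% of a library. The shallowest libraries outside these IDs were CON13 with 397495 counts and WD6 with 1106575, so low counts carry their largest error in these libraries. In the fit over all genes (edgeR's quasi-likelihood F test), 72 of 14432 genes tested passed the threshold of 0.05 on the Benjamini-Hochberg adjusted p, or 0.499%. Of these, 39 were higher in WD (0.27%) and 33 were lower (0.229%). All 6 members passed the filter on low counts.

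HR (ENSCDRG00005009395) was lower in every WD library than in any control library. The control values were 66.2 CPM in CON2, 64.0 in CON3, 36.7 in CON4, 48.2 in CON5 and 52.3 in CON13. The WD values were 17.5 CPM in WD6, 16.2 in WD7, 20.8 in WD8, 13.5 in WD9 and 22.0 in WD15. The lowest control camel therefore stood well above the highest WD camel. Mean HR was 53.5 ± 12.1 CPM for control and 18.0 ± 3.43 CPM for WD camels (SD, n = 5 each), 2.97-fold lower, and the fitted log2 fold change was -1.58 (SE 0.209).

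The counts behind HR are given as a description, since HR was chosen from them. HR had 37 to 331 counts in a library. The exact 95% Poisson interval of the lowest control library, CON4, began at 32.8 CPM, and that of the highest WD library, WD15, ended at 26.6 CPM. In the shallowest libraries HR rested on 44 counts in CON13 (38.0 to 70.2 CPM) and 37 counts in WD6 (12.3 to 24.1 CPM). Such intervals cover counting error alone.

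HR is 1 of the 33 genes called lower. It is the 1 member of 6 whose groups do not overlap, beside 2.62% of all genes in either direction and 1.27% (184 genes) with all WD below all control libraries. These counts follow from how HR was chosen and are given as its place in the series. Ordered from the deepest fall, HR ranked 61 of 14432 by fitted log2 fold change. Each library left out in turn gave log2 fold changes from -1.71 (without CON4) to -1.48 (without WD9). With the 2 shallowest libraries left out together the value was -1.59. With library totals as the only scaling it was -1.44 (SE 0.413), and HR was then not called.

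**Figure D1:**
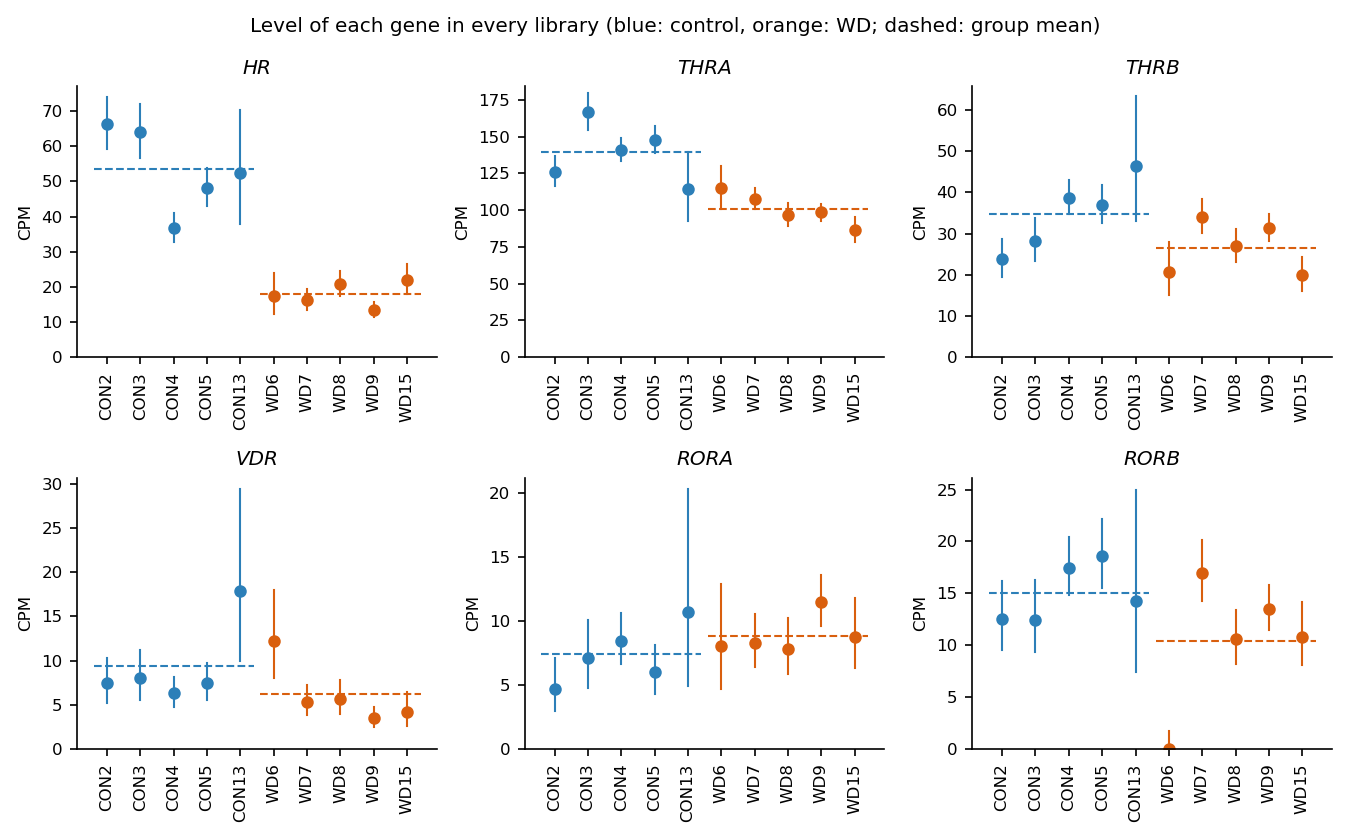
Level of each of the 6 genes in CPM (vertical axis) in each of the 10 libraries (horizontal axis), with exact 95% Poisson counting intervals as bars and group means as dashed lines. For HR the control libraries lie between 36.7 and 66.2 CPM and the WD libraries between 13.5 and 22.0 CPM, and for the other 5 genes the groups overlap.

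THRA (ENSCDRG00005006139) encodes thyroid hormone receptor alpha, the main thyroid hormone receptor of the adult brain. In control camels THRA was at 126 CPM in CON2, 167 in CON3, 141 in CON4, 148 in CON5 and 114 in CON13. In WD camels it was at 115 CPM in WD6, 108 in WD7, 96.9 in WD8, 98.4 in WD9 and 86.6 in WD15. The groups met at a single point, where CON13, the lowest control library, fell just below WD6, the highest WD library. These are the 2 shallowest libraries, with 96 and 243 THRA counts.

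Mean THRA was 139 ± 20.2 CPM for control and 101 ± 10.8 CPM for WD camels (SD, n = 5 each), 1.38-fold lower, with a log2 fold change of -0.47 (SE 0.160). The value ranged from -0.54 to -0.42 over the 10 libraries left out in turn. The alpha locus makes a receptor and a variant that binds no hormone, and counts per gene do not separate these.

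**Figure D2:**
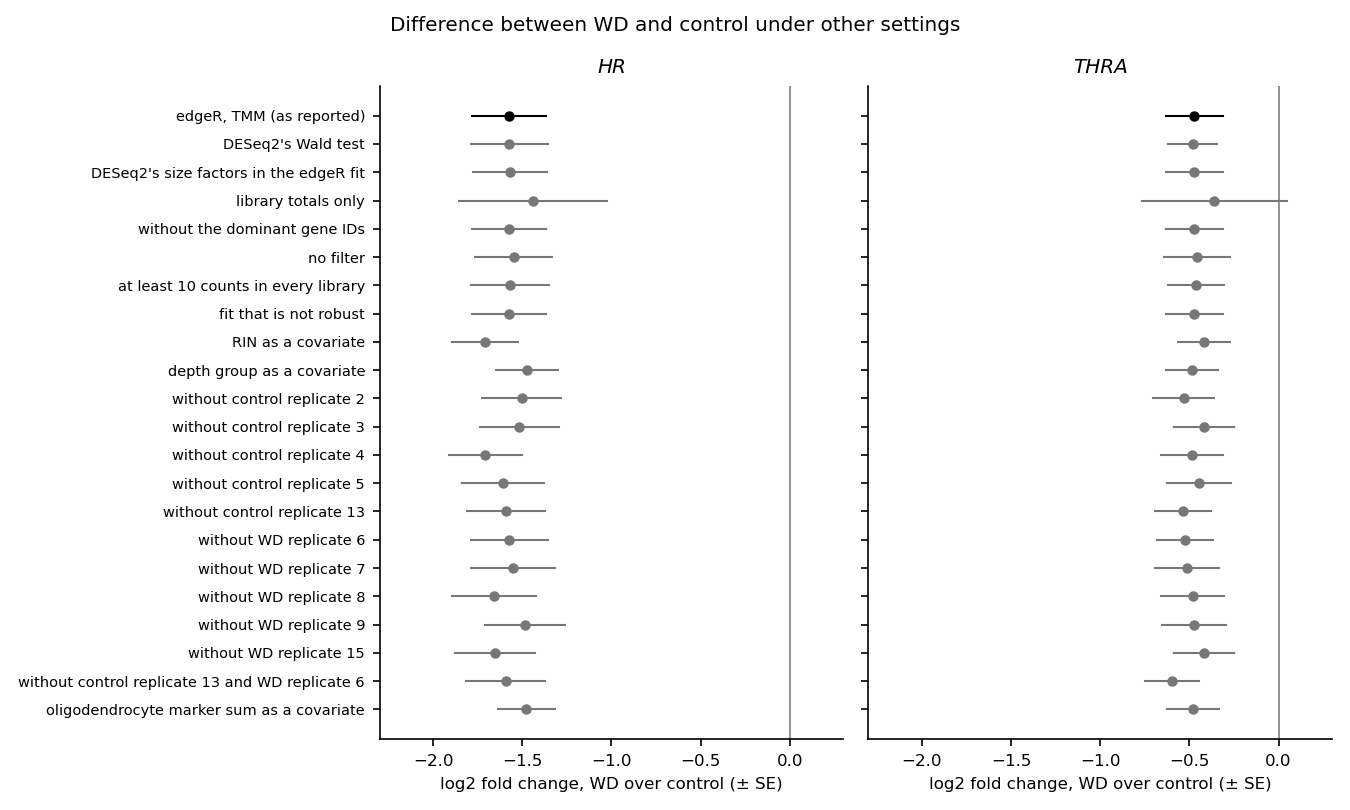
Fitted log2 fold change of WD over control (horizontal axis, bars ± SE) of HR and THRA under each setting tried (vertical axis). HR lies between -1.71 and -1.44 throughout, and the widest bars are those with library totals as the only scaling.

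THRB (ENSCDRG00005003618) encodes thyroid hormone receptor beta, the isoform of the hypothalamic and pituitary feedback on thyroid hormone. Its control values were 23.8 CPM in CON2, 28.2 in CON3, 38.7 in CON4, 37.0 in CON5 and 46.4 in CON13. Its WD values were 20.8 CPM in WD6, 34.0 in WD7, 26.9 in WD8, 31.4 in WD9 and 19.9 in WD15. The groups overlapped in part, with CON4, CON5 and CON13 above every WD library and WD6 and WD15 below every control library. Mean THRB was 34.8 ± 8.92 CPM for control and 26.6 ± 6.26 CPM for WD camels (SD, n = 5 each). The log2 fold change was -0.34 (95% interval -0.80 to 0.11) and did not pass the test (edgeR, adjusted p = 0.684), and it was -0.21 without CON13 and WD6.

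The balance of the 2 thyroid hormone receptors was described as the log2 ratio of THRA to THRB within each library. The ratio averaged 2.02 ± 0.495 for control and 1.95 ± 0.345 for WD camels (SD, n = 5 each), a difference of -0.08. It ran from 1.30 in CON13 to 2.56 in CON3, and from 1.65 in WD9 to 2.46 in WD6. The groups overlapped almost fully, so the lower THRA level came with no shift of the ratio larger than the spread between camels. No test is given, because THRA was chosen from this comparison.

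VDR (ENSCDRG00005011877) encodes the vitamin D receptor, which acts with a retinoid X receptor on calcium and other target genes. In control camels VDR was at 7.43 CPM in CON2, 8.0 in CON3, 6.28 in CON4, 7.42 in CON5 and 17.8 in CON13. In WD camels it was at 12.3 CPM in WD6, 5.33 in WD7, 5.65 in WD8, 3.44 in WD9 and 4.14 in WD15. The highest library of each group is its shallowest one. Only 15 to 55 counts in a library stand behind these levels, 15 of them in CON13 (9.98 to 29.4 CPM) and 26 in WD6 (8.02 to 18.0 CPM).

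Mean VDR was 9.39 ± 4.76 CPM for control and 6.17 ± 3.53 CPM for WD camels (SD, n = 5 each). Its log2 fold change of -0.56 (95% interval -1.34 to 0.23) did not pass the test (edgeR, adjusted p = 0.701). The value moved to -0.34 without CON13 and to -0.86 without WD6, and passed the test in neither case. With both left out, a setting added after the data were seen, it was -0.67 (SE 0.266) and did not pass the test either. Over the 10 libraries, deviations of VDR from its group mean on the log2 scale had a Pearson r of -0.895 with those of the counts outside the dominant gene IDs. With the group of deeper libraries as a covariate, VDR differed by -0.45 (SE 0.338) and did not pass the test (edgeR, adjusted p = 0.657).

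RORA (ENSCDRG00005010112) encodes retinoic acid receptor-related orphan receptor alpha, an activator of the clock gene ARNTL and a receptor needed for cerebellar Purkinje cells. It was the only member with a higher mean in WD camels. Control values were 4.67 CPM in CON2, 7.06 in CON3, 8.44 in CON4, 5.97 in CON5 and 10.7 in CON13. WD values were 8.02 CPM in WD6, 8.24 in WD7, 7.79 in WD8, 11.4 in WD9 and 8.70 in WD15. All WD libraries lay above 3 of the control libraries, and CON4 and CON13 lay among them, CON13 with 9 counts and an interval of 4.89 to 20.3 CPM.

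Mean RORA was 7.37 ± 2.32 CPM for control and 8.84 ± 1.49 CPM for WD camels (SD, n = 5 each). The log2 fold change of 0.35 (95% interval -0.22 to 0.92) did not pass the test (edgeR, adjusted p = 0.755). Without CON2, its lowest library, the value was 0.19. RORA had 9 to 133 counts in a library.

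RORB (ENSCDRG00005000469) encodes the beta paralogue, which is expressed in sensory and clock regions of the brain such as the retina, the suprachiasmatic nucleus and cortical layers. Its control values were 12.5 CPM in CON2, 12.5 in CON3, 17.5 in CON4, 18.6 in CON5 and 14.3 in CON13. Its WD values were 17.0 CPM in WD7, 10.5 in WD8, 13.5 in WD9 and 10.8 in WD15, while WD6 had 0 counts. A count of 0 in WD6 allows up to 1.42 CPM at a floor of 3 counts (the exact 95% Poisson interval drawn in the plot of levels ends at 1.74 CPM), and the lowest level of the other 9 libraries would have given 22.3 counts there.

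RORB thus stood apart in 1 WD camel. Among genes at 10 CPM or more in every other library, 2 gene IDs were at 0 in WD6, RORB and an ID with no symbol here, and none in any other library. Mean RORB was 15.1 ± 2.84 CPM for control and 10.4 ± 6.35 CPM for WD camels (SD, n = 5 each), with 12.95 ± 3.01 CPM (SD, n = 4) for WD camels without WD6. Its log2 fold change of -0.47 (95% interval -1.34 to 0.40) did not pass the test (edgeR, adjusted p = 0.793). The value was -0.23 without WD6, -0.71 without WD7 and -0.26 without CON13 and WD6.

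The paralogues RORA and RORB differed in the sign of their change, and this difference was tested on the log2 ratio of RORA to RORB (prior count 0.5). In control libraries the ratio was -1.41 in CON2, -0.81 in CON3, -1.04 in CON4, -1.63 in CON5 and -0.41 in CON13. In WD libraries it was 6.57 in WD6, -1.04 in WD7, -0.43 in WD8, -0.24 in WD9 and -0.31 in WD15. Apart from WD6, where RORB had no counts, the WD ratios sat within or just above the upper end of the control range.

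The mean ratio was -1.06 ± 0.481 for control and 0.91 ± 3.18 for WD camels (SD, n = 5 each), a difference of 1.97 (two-sided exact permutation test, p = 0.0635). The value of WD6 depends on the prior count, since RORB had no counts there. With RORB set to the floor of 3 counts in WD6, a setting chosen after the data were seen, the difference was at least 1.16 (two-sided exact permutation test, p = 0.0635). With a prior count of 2 the difference was 1.56 (two-sided exact permutation test, p = 0.0635). Without WD6 the difference was 0.56 (two-sided exact permutation test, p = 0.111). Without WD7 it was 2.46 (p = 0.0159) and without WD8 2.31 (p = 0.0397), both by the same exact test and both with WD6 in the group. The size of the difference thus rested on 1 library.

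**Figure D3:**
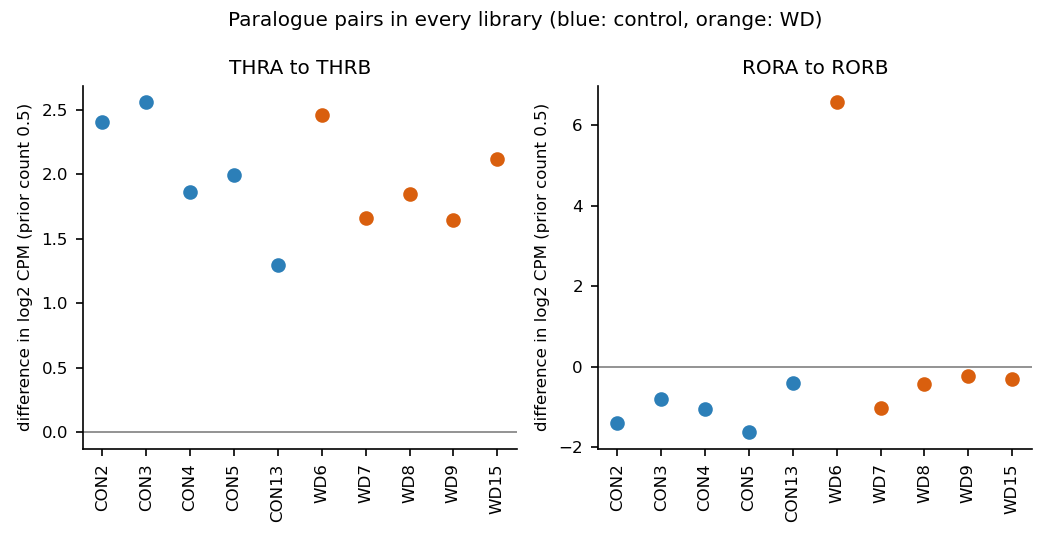
Log2 ratio of CPM (vertical axis, prior count 0.5) of THRA to THRB and of RORA to RORB in each library (horizontal axis), with control in blue and WD in orange. The THRA to THRB ratios of both groups lie between 1.30 and 2.56, and in the RORA to RORB ratios WD6, with 0 RORB counts, stands at 6.57, a height set by the prior count, while all other libraries lie below 0.

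THRB, VDR and RORB had a lower and RORA a higher mean in WD camels. None of THRB, VDR, RORA and RORB passed the test, beside the 0.499% of all genes that did, and none had an unadjusted p under 0.05 in edgeR. DESeq2's Wald test, which called 1.27% of the genes it tested, called none of these 4. The 95% intervals of VDR and RORB both reach down to -1.34, so falls up to that size are within them, and the SE of RORB was 0.414 with WD6 and 0.217 without it.

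**Figure D4:**
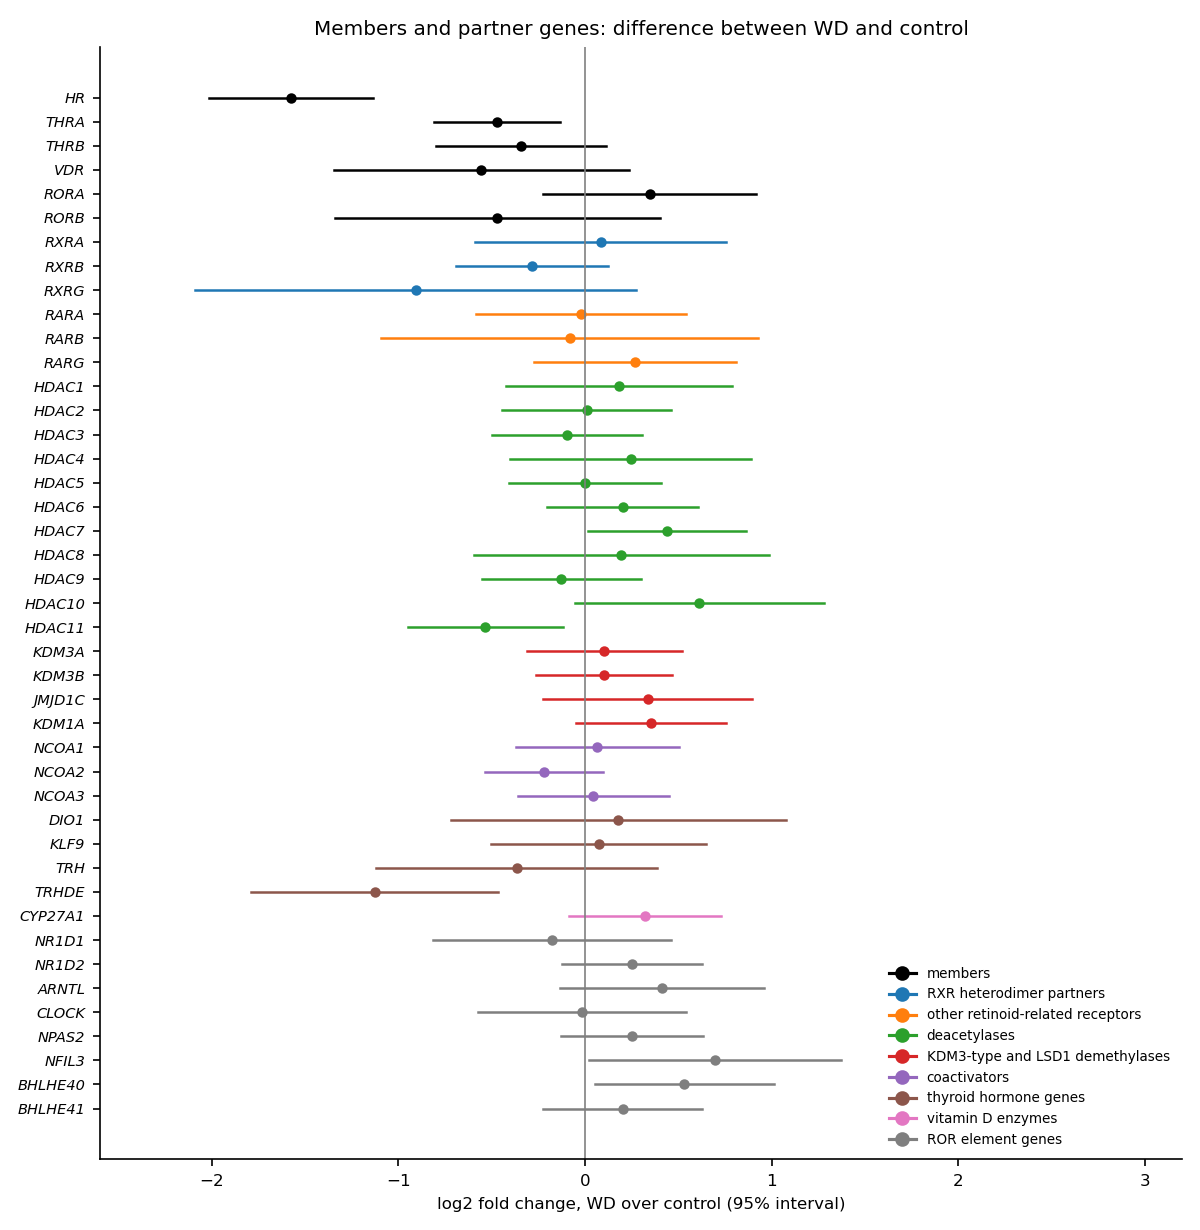
Fitted log2 fold change of WD over control (horizontal axis) with its 95% interval for the 6 members and the 37 partner genes tested (vertical axis), coloured by list. HR at -1.58 is the lowest of the genes drawn, and TRHDE at -1.13 is the next.

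Within the groups, members did not move together as 1 set. Pearson's r of deviations from the group means (log2 CPM, n = 10 libraries, which share depth and tissue make-up) was -0.165 for HR and THRA, although it was 0.731 over the libraries without regard to group. For HR and THRB the r of deviations was -0.673, and for HR and RORA it was -0.533. For THRB and RORA the r was 0.666. With each library left out in turn these values ran from -0.499 to 0.0143 for HR and THRA, from -0.772 to -0.580 for HR and THRB, from -0.705 to -0.371 for HR and RORA, and from 0.483 to 0.781 for THRB and RORA. The r of VDR and RORB was -0.703 but -0.146 without WD6, and that of HR and RORB was -0.0659 but -0.778 without WD6, where RORB had no counts and its log2 value is set by the prior count. These values are descriptions of 10 libraries.

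Deviations of HR within the groups were set beside those of the summed cell type markers. In bulk tissue, fewer cells of a type and less RNA per cell cannot be told apart. Among control libraries the order of HR was the order of the summed oligodendrocyte markers (OLIG1, OLIG2, SOX10, MYRF, NKX6-2 and ERBB3), from CON2 with the most of both to CON4 with the least. Among WD libraries the order was also the same except for WD6, and WD9 had the least of both. The r of deviations was 0.806 for the oligodendrocyte sum, 0.831 for the sum of suprachiasmatic neighbours (SIX3, SIX6, LHX1, ZFHX3 and VIP), 0.708 for microglia, 0.254 for GABA neurones, 0.175 for endothelium and -0.611 for the magnocellular markers (n = 10 libraries). For the RNA integrity number it was -0.754. With each library left out in turn it ran from 0.701 to 0.926 for oligodendrocytes, from 0.694 to 0.947 for suprachiasmatic neighbours and from 0.610 to 0.831 for microglia. It ran from 0.0388 to 0.547 for GABA neurones and from -0.0258 to 0.444 for endothelium. For the magnocellular markers it ran from -0.682 to -0.492, and for RNA integrity from -0.876 to -0.688. In control camels ZFHX3 averaged 30.8 CPM, beside 5.17 for SIX3, 1.19 for VIP, 0.60 for LHX1 and 0.51 for SIX6. The magnocellular list was led by ARNT2 (364 CPM in control and 357 in WD camels) and PDYN (161 and 615 CPM). SIM1 (70.6 and 68.4 CPM) and OTP (39.3 and 25.5 CPM) were lower. Both sums thus mostly followed their leading genes.

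The oligodendrocyte markers themselves did not separate the groups. Their sum was 109 to 291 CPM in control and 109 to 238 CPM in WD camels, 5 of 6 markers had a negative and 1 a positive log2 fold change (median -0.16), and none was called by edgeR or DESeq2 or had an unadjusted p under 0.05. With this sum as a covariate, an alternative chosen after the data were seen, HR differed by -1.48 (SE 0.162), beside -1.58 (SE 0.209) without it. With RNA integrity as a covariate it differed by -1.71, and with the group of deeper libraries as a covariate by -1.47. The part of cell make-up, RNA integrity and depth in the HR difference was not tested beyond these values.

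Levels of the other marker lists are given beside HR. All 6 microglia markers (SPI1, IRF8, CSF1R, RUNX1, IKZF1 and PTPRC) had positive log2 fold changes with a median of 0.70, 155 to 248 CPM in sum in control and 177 to 540 in WD camels, and none was called by edgeR (3 at an unadjusted p under 0.05) or by DESeq2, while edgeR with the group of deeper libraries as a covariate called 1 of them, PTPRC, higher. Endothelial markers (KDR, FLT1, TEK, TIE1, ERG and SOX17) had a median of 0.41, with 5 of 6 positive, sums of 113 to 187 and 141 to 269 CPM, and none called by either tool (2 at an unadjusted p under 0.05 in edgeR). The magnocellular sum was 498 to 695 CPM in control and 825 to 1246 CPM in WD camels, through PDYN, the prodynorphin gene, which was called higher (edgeR, log2 fold change 1.93, adjusted p = 0.000302), while SIM1 differed by -0.04, ARNT2 by -0.03 and OTP by -0.58 (39.3 ± 11.9 against 25.5 ± 7.20 CPM, SD, n = 5 each, edgeR adjusted p = 0.454). The part of these lists in the HR result was not tested.

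Suprachiasmatic and GABA markers, which would mark tissue and cells next to the magnocellular neurones, overlapped between the groups. The suprachiasmatic sum was 25.1 to 50.1 CPM in control and 31.0 to 47.9 CPM in WD camels, with SIX6, LHX1 and VIP too low to test. The GABA sum (GAD1, GAD2 and DLX1) was 20.9 to 38.6 and 11.8 to 35.0 CPM. It was lowest in WD6, where DLX1 was at 0, and WD6 is also the library without RORB counts. The r of deviations between RORB and the GABA sum was 0.725 over the 10 libraries but -0.394 without WD6, so it rests on that library. Without WD6 the r of RORB was 0.830 with the magnocellular sum and 0.793 with RNA integrity, beside -0.324 and 0.201 over the 10 libraries. For THRB the r of deviations was -0.760 with the oligodendrocyte sum, -0.731 with microglia and -0.657 with the suprachiasmatic sum (n = 10 libraries). It was 0.494 with the magnocellular sum and 0.674 with RNA integrity. With RNA integrity as a covariate THRB differed by -0.21 (SE 0.194), beside -0.34 (SE 0.217) without it, and did not pass the test (edgeR, adjusted p = 0.781). THRA deviated opposite to the endothelial sum (r = -0.727). The part of these lists in the RORB, THRB and THRA results was not tested.

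**Figure D5:**
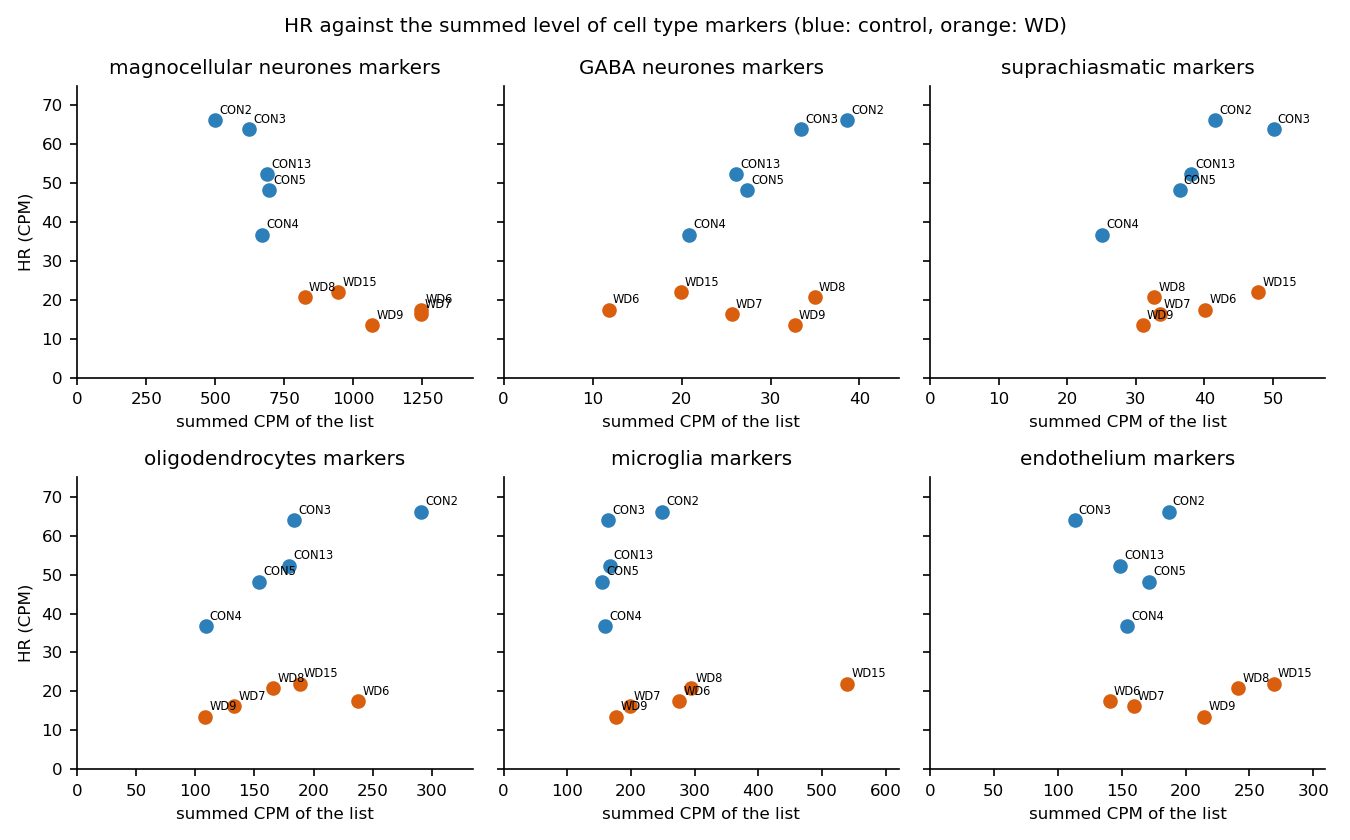
HR in CPM (vertical axis) against the summed CPM of 6 lists of cell type markers (horizontal axes), 1 point per library, control in blue and WD in orange. The oligodendrocyte sum spans 109 to 291 CPM in control and 109 to 238 CPM in WD camels, and within each group HR is lowest where that sum is lowest.

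The genes that work with HR and its receptors were read as 8 lists of 41 genes, of which 37 were tested. None was called by edgeR or by DESeq2. At an unadjusted p under 0.05 edgeR had 3 higher and 2 lower, beside 9.31% of all genes tested. Their log2 fold changes were positive for 25 genes and negative for 12, with a median of 0.10. With library totals as the only scaling, which moves the median of all genes from 0.02 to 0.16, 30 were positive and 7 negative, with a median of 0.23.

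The retinoid X receptors are the heterodimer partners of thyroid hormone and vitamin D receptors. None of RXRA, RXRB and RXRG was called, and 2 of 3 were negative (median -0.29). RXRB was at 25.3 ± 5.21 CPM for control and 20.3 ± 3.02 CPM for WD camels (SD, n = 5 each), and RXRA at 16.1 ± 8.92 and 15.6 ± 5.67 CPM (SD, n = 5 each). RXRG, named after its values were seen, had 113 counts in all and was at 2.94 ± 1.73 and 1.41 ± 0.744 CPM (SD, n = 5 each), a log2 fold change of -0.91 (SE 0.561) that did not pass the test (edgeR, adjusted p = 0.671). Of the retinoic acid receptors RARA, RARB and RARG none was called (2 of 3 negative, median -0.02, but all 3 positive with library totals only). RARA differed by -0.02 (SE 0.268) and RARG by 0.27 (SE 0.257).

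Histone deacetylases carry out the repression for which hairless is a scaffold. None of the 11 genes HDAC1 to HDAC11 was called, 8 were positive and 3 negative, and the median was 0.18. HDAC5, a class II enzyme, was at 117 ± 20.5 CPM for control and 118 ± 29.6 CPM for WD camels (SD, n = 5 each), a log2 fold change of 0.00 (SE 0.194). HDAC9, of the same class, differed by -0.13 (SE 0.202). HDAC10, HDAC7 and HDAC11 had the values farthest from 0 and are named after their values were seen. HDAC10 differed by 0.61 (SE 0.317) and HDAC7 by 0.44 (SE 0.201), and neither passed the test. HDAC11 was at 43.0 ± 6.44 against 29.7 ± 8.37 CPM (SD, n = 5 each), with a log2 fold change of -0.53 that did not pass the test (edgeR, adjusted p = 0.368).

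The KDM3 demethylases are the JmjC proteins closest to hairless, and KDM1A is the demethylase LSD1 of corepressor complexes. All 4 of KDM3A, KDM3B, JMJD1C and KDM1A had positive log2 fold changes (median 0.22), and none was called. JMJD1C, the largest KDM3-type protein, differed by 0.34 (SE 0.266) and KDM3B by 0.10 (SE 0.173). The coactivators NCOA1, NCOA2 and NCOA3, which replace corepressors on receptors with hormone, had no call (2 of 3 positive, median 0.05). NCOA2 was at 98.9 ± 11.8 CPM in control and 84.7 ± 2.53 CPM in WD camels (SD, n = 5 each), with a log2 fold change of -0.22 (SE 0.150), and NCOA1 differed by 0.07 (SE 0.208).

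Genes of thyroid hormone supply and response had no call among the 4 tested (2 positive, 2 negative, median -0.15). KLF9, a target induced by the liganded receptor, was at 28.7 ± 15.1 CPM in control and 31.6 ± 5.06 CPM in WD camels (SD, n = 5 each), a log2 fold change of 0.07 (SE 0.274). TRH, the releasing hormone that thyroid hormone represses in the hypothalamus, differed by -0.37 (SE 0.358). DIO3, the enzyme that inactivates thyroid hormone, had 0 counts in all control and 2 counts in all WD libraries together and was not tested.

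TRHDE, the ectoenzyme that breaks down TRH, had the largest log2 fold change of the 37 genes tested on these lists, and is named after its values were seen. It was at 20.7 ± 5.44 CPM (SD, n = 5) in control camels, from 16.0 to 29.3, and at 9.23 ± 4.16 CPM (SD, n = 5) in WD camels, from 2.90 to 13.6. The groups did not overlap, as for 1.27% of all genes with WD lower. Its log2 fold change of -1.13 (SE 0.314) did not pass the test (edgeR, adjusted p = 0.178, and 0.128 to 0.333 with each library left out in turn). DESeq2's Wald test gave an adjusted p of 0.0742. With the group of deeper libraries as a covariate edgeR gave an adjusted p of 0.0250, in a fit that called 1.55% of all genes.

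Of the vitamin D enzymes, CYP27A1, a mitochondrial sterol hydroxylase, was alone in passing the filter on low counts. It was at 24.7 ± 4.53 CPM for control and 31.3 ± 5.91 CPM for WD camels (SD, n = 5 each), and its log2 fold change of 0.32 did not pass the test (edgeR, adjusted p = 0.657). CYP27B1, which makes the active hormone, CYP24A1, which breaks it down and is a classic VDR target, and CYP2R1 had 93, 66 and 104 counts over all libraries and were not tested.

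None of the clock genes listed beside the ROR receptors was called. Of NR1D1, NR1D2, ARNTL, CLOCK, NPAS2, NFIL3, BHLHE40 and BHLHE41, 6 had positive and 2 negative log2 fold changes (median 0.25), beside 7491 positive values among the 14432 genes tested. NR1D2, a REV-ERB repressor that competes with ROR proteins for their sites, was at 29.8 ± 5.61 CPM in control and 35.7 ± 3.70 CPM in WD camels (SD, n = 5 each), and NPAS2, a paralogue of CLOCK, at 23.9 ± 3.92 and 29.3 ± 3.98 CPM. Their log2 fold changes were both 0.25, with SE 0.179 and 0.181. NFIL3, a repressor of clock output genes named after its values were seen, was at 3.53 ± 0.772 CPM for control and 6.04 ± 1.13 CPM for WD camels (SD, n = 5 each). Its groups did not overlap, as for 1.34% of all genes with WD higher, and its log2 fold change of 0.70 did not pass the test (edgeR, adjusted p = 0.521).

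Genes whose levels were most like those of HR were sought among 1028 tested genes with a mean of at least 100 counts a library. All came from the study's lists of transcription factors, peptides, catalytic receptors and enzymes, and genes outside these lists were not candidates. Over the 10 libraries Pearson's r of log2 CPM was 0.933 for MYT1L, a zinc finger factor of neurones, 0.886 for NFIX, a nuclear factor I protein, 0.868 for the membrane protease ADAM15, 0.856 for the growth factor FGF1 and 0.830 for the ephrin receptor EPHB1. This measure holds the difference between the groups. MYT1L was at 27.2 ± 4.13 CPM in control and 16.6 ± 1.06 CPM in WD camels (SD, n = 5 each), and NFIX at 81.1 ± 14.9 and 58.2 ± 9.81 CPM. Neither passed the test (edgeR, adjusted p = 0.0963 for MYT1L and 0.371 for NFIX). For FGF1 the r of deviations from the group mean was only -0.0513.

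With the group means taken out, the 5 highest r values were 0.935 for EPHX2, a soluble epoxide hydrolase, 0.892 for the kinase gene DMPK, 0.892 for EPHB1, 0.885 for NFIX and 0.871 for SREBF1, a regulator of lipid synthesis. EPHX2 followed HR from camel to camel within a group but was at 21.1 ± 2.71 CPM for control and 21.0 ± 2.98 CPM for WD camels (SD, n = 5 each). EPHB1 and NFIX were on both lists. Without the 2 shallowest libraries, 1 of the 5 genes of the first list and 2 of the 5 of the second were again among the 5 highest, so the order depends on those libraries. Over the 8 libraries left, r was between 0.831 and 0.978 for the first list and between 0.900 and 0.956 for the second.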

How the data were processed

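Ribosome-depleted, stranded libraries of rostral SON RNA were sequenced from both ends, 1 library per camel. The authors aligned the trimmed reads to the assembly Camdro2 with STAR and deposited raw counts of read pairs per gene from featureCounts. A deposited table of DESeq2-normalized values was not used. Whether the counting used strand is not given in the sources used here. In the RefSeq annotation of another dromedary assembly, HR overlaps HRURF, RORB overlaps TRPM6, and THRB and RORA overlap non-coding RNAs, so reads of these genes may be shared. No coordinates are given.

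The members and gene lists were chosen with earlier results of these data known, and symbols came from the study's supplementary tables. WD and control were compared with edgeR 4.0.16 in R 4.3.3 (TMM, filterByExpr, robust quasi-likelihood F test), adjusted by Benjamini-Hochberg over 14432 genes, with a common biological coefficient of variation of 0.285. A standard error is the log2 fold change divided by the square root of F. Alternatives were DESeq2 1.42.0, its size factors in edgeR, library totals only, other filters, a fit that is not robust, covariates for RNA integrity and depth, and each library left out. The oligodendrocyte covariate, leaving out CON13 and WD6 together, and RORB at a floor of 3 counts were chosen later, with the data in view. Genes were named by rule: the 6 members, called genes of each list or else its 2 with most counts, and the 5 most like HR by each measure. Other genes are named where the text says that their values had been seen. A result on 1 gene of these lists is not reported here.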

Additional observations from a re-analysis of the deposited data

Results flagged for a closer look

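Single libraries far from their group were looked for among the 6 members, on log2 CPM with a prior count of 0.5, by the gap between the highest or lowest library and its nearest neighbour over the range of the group. Chance gives such a library in about 1 in 20 groups of 5, at the critical value of 0.71. VDR in CON13 was high, with a gap of 0.769 of the range of the control group (17.8 CPM against 8.0 CPM in the next library). RORA in WD9 was high, with a gap of 0.712 of the range of the WD group (11.4 CPM against 8.70 CPM). RORB in WD6 was low, with a gap of 0.910 of the range of the WD group (0 counts against 10.5 CPM in WD8). HR, THRA and THRB had no such library in either group.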

How the results depend on the processing

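HR kept its sign under every setting tried and lay between -1.71 and -1.48 with 1 library left out. With library totals as the only scaling it differed by -1.44 and was not called. That scaling moved the median of all genes to 0.16, and 10 genes were then called (7 higher, 3 lower). THRA differed by -0.48 in DESeq2's Wald test, which called it (adjusted p = 0.0372). EdgeR did not call it in the fit as reported (adjusted p = 0.304) or with 1 library left out (-0.54 to -0.42, adjusted p = 0.161 to 0.677), nor under any other setting tried. In place of 72, the number of genes called was 209 with DESeq2, 224 with the group of deeper libraries as a covariate, 185 with the oligodendrocyte sum as a covariate, and 40 (without CON3) to 102 (without WD6) with 1 library left out, 42 without CON5. The cause was not tested. The RORA to RORB difference ran from 0.56 to 2.46 with 1 library left out, and was 2.46 without WD7 and 2.31 without WD8. It was 1.56 with a prior count of 2 and at least 1.16 with RORB at the floor in WD6. The leave-one-out ranges were -0.48 to -0.25 for THRB, -0.86 to -0.34 for VDR, 0.19 to 0.43 for RORA and -0.71 to -0.23 for RORB. For the THRA to THRB ratio the range was -0.26 to 0.06. With library totals as the only scaling THRB differed by -0.10, VDR by -0.48, RORA by 0.52 and RORB by -0.19, and none was called. Of the genes most like HR, 1 and 2 of 5 remained without the 2 shallowest libraries. RORA and RORB had no value when at least 10 counts were asked of every library. No paired analysis was made because the groups were made up of different camels. VDR had 15 to 55 and RORA 9 to 133 counts in a library, which limits their precision.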
